A study of Mus musculus with 12 samples.

Results

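Zfp is the mouse symbol for genes that encode zinc finger proteins, most of which carry fingers of the C2H2 type, in which a pair of cysteines and a pair of histidines hold a zinc ion. The genes described here are the autosomal protein-coding genes whose symbol is Zfp followed by a number, with an authors' mean of at least 50 normalised reads in embryonic stem (ES) cells and a mean above 0 in blastocysts, leaving out Zfp42 and Zfp57. They were chosen by those means, which are values of the same tables as the fold changes below, so the fold changes are given as a description. Of 352 Zfp symbols in the ES cell table, 345 were autosomal, 117 reached the mean of 50, and 114 remained after 2 were left out by name and 1 had a mean of 0 in blastocysts. These 114 genes were 114 of 45801 genes listed in the 2 tables together. They lay on 19 chromosomes, and 16 carried another symbol in the blastocyst table, where they were found by their gene identifier. In blastocysts 67 of the 114 had a mean of at least 50.

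The series compared RNA from mouse blastocysts and ES cells of the genotypes Dis3L WT and Dis3L KO, with 3 samples for each of these 4 groups, 12 in all. Dis3l encodes a catalytic subunit of the cytoplasmic exosome, which degrades RNA from the 3′ end, and the comparison asks which transcripts differ when that subunit is lost. Blastocysts were collected 96 hours after the hormone hCG was injected and were sequenced as single embryos, while ES cell lines had been derived from outgrowths on feeder layers of inactivated mouse embryonic fibroblasts. Strain, allele, sex and the number of independent lines were not given in the sources used here. The deposited data are one table of results per material, which state no direction, so fold changes keep the sign of the authors' deposited tables and are called the positive and the negative side of the comparison, with neither side tied to a genotype. Where nothing says that samples came from separate animals or lines, the authors' p-values measure only the spread between those samples.

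In mammals the largest group of C2H2 zinc finger proteins also carries a KRAB domain near the amino end. The fingers bind particular DNA sequences, many of them in transposable elements, and the KRAB A box recruits the corepressor TRIM28, which brings the histone methyltransferase SETDB1 and heterochromatin proteins to the site. In embryos and ES cells this pathway is known for silencing retroelements and for keeping imprints through the wave of demethylation, whereas zinc finger proteins without KRAB include activators, RNA-binding proteins and subunits of larger complexes. Many KRAB zinc finger genes lie in tandem clusters that arose by duplication, so neighbouring genes can have very similar transcripts.

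The depth behind each fold change was read from the deposited means. Each mean adds up the whole reads of the count columns that entered it, each scaled by its size factor, and those whole numbers could be solved for 114 of the 114 genes in ES cells and for 102 of them in blastocysts. The ES cell table rests on 4 count columns, 2 on each side, with size factors (relative depths) of 1.25 and 0.759 on the positive side against 1.05 and 1.03. The labels list 6 ES cell samples, so columns and samples do not match in number. Whether samples were left out or pooled, and which ones entered, is not known. The blastocyst table rests on 6, with size factors of 1.40, 0.985 and 0.875 against 1.62, 0.897 and 0.695. Columns are not tied to samples. Reads are given with the positive-side columns first and, after "against", the negative-side columns in the same order, and SE stands for the standard error in the authors' deposited tables. Reads of ES cells and blastocysts come from different library methods, ribosomal RNA depletion in the former and tagmented cDNA of single embryos in the latter, so levels are compared within a material only. Among Zfp genes with blastocyst means of up to 100, 87.7% of the nonzero numbers were even, so a count there may stand for both mates of a fragment. For higher means only even numbers, or 1 odd number, were searched, so those reads rest on that restriction. Whole reads give counting precision only, because amplified reads are not independent molecules.

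A few values of the materials themselves bear on what follows. The targeted gene Dis3l had a log2 fold change of −0.88 in ES cells (adjusted p = 0.445) and 0.28 in blastocysts (adjusted p = 0.997) in the authors' deposited tables, from the Wald test of DESeq2. Its ES cell reads were 14 and 8 against 39 and 39, and the sides did not overlap. Its blastocyst reads were few, 26, 8 and 0 against 10, 4 and 8, and the sides overlapped. The ES cell markers were present, with means from 285 for Klf4 to 1613 for Tfcp2l1, and 0 of 6 had an unadjusted p below 0.05. Each had a negative log2 fold change in ES cells, from −0.42 for Pou5f1 to −0.08 for Sox2 in the authors' deposited table. Fibroblast markers were detected in ES cells, 6 of 6, and their summed normalised reads were 176 and 173 against 204 and 1387. The high sum of negative-side column 2 came from the collagen genes Col3a1, Col1a2 and Col1a1 and from Postn, which was at 0 in positive-side column 2. The markers did not all follow it, since Thy1 was lowest in negative-side column 2, at 14.5 against 25.0 to 30.3 in the other columns, and Twist2 was at 9.66 against 3.95 to 8.56. In blastocysts, of the same 6 pluripotency markers, Pou5f1 and Nanog had log2 fold changes of −1.21 and −1.93 in the authors' deposited table, with unadjusted p-values of 0.0124 and 0.00863 (DESeq2). The other 4 had no such p and ran from −0.53 for Klf4 to 0.03 for Sox2 in the authors' deposited table. Of 6 trophectoderm genes in the authors' deposited table, Krt8 and Krt18 stood at −0.87 and −0.63 and Gata3 at 0.52, each below 0.05 before adjustment, while Cdx2 stood at −0.03, Tfap2c at 0.17 and Eomes at 0.51, each with a higher p. Neither list thus moved as a whole in blastocysts. The primitive endoderm genes ran there from −0.77 for Gata6 to 0.25 for Dab2, each with an unadjusted p above 0.05 (DESeq2). The part of cell composition in the values below was not tested, and in whole embryos fewer cells of a type cannot be told apart from less RNA per cell.

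None of the 114 Zfp genes passed the authors' adjusted p-value of 0.05 in either material (0 of 114 in ES cells, where 0.261% of all genes tested passed, and 0 of 114 in blastocysts, where 0.0986% passed). The lowest adjusted p-values in the authors' deposited ES cell table, from DESeq2, were 0.0601 for Zfp266, 0.0881 for Zfp518a and 0.178 for Zfp979. In the authors' deposited blastocyst table the lowest was 0.476, for Zfp367. Before adjustment 15 Zfp genes had a p below 0.05 in ES cells, 11 on the positive side, where the share over all genes tested was 2.21%, and 4 on the negative side, where it was 3.42%. In blastocysts there were 5, of which 4 were positive (2.68% over all genes tested) and 1 was negative (3.53%). Means of the same tables chose the genes, with results known, so nothing is read from these counts. The 99 Zfp genes without such a p in ES cells had log2 fold changes from −0.48 for Zfp263 to 0.54 for Zfp652 in the authors' deposited table, 57 of them positive. The 109 in blastocysts ran from −4.65 for Zfp941, which had 0, 0 and 0 reads against 0, 4 and 6, to 1.64 for Zfp459, with 73 positive.

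Before adjustment 3 genes were below 0.05 in both tables, and each lay on the positive side in both: Zfp266, Zfp979 and Zfp367. Among 9403 autosomal protein-coding genes tested in both tables, 35 were below 0.05 in both, which is 0.372%. Their upstream sequences are shown because they are the Zfp genes that stood out in both materials. Each is the 250 bases before a RefSeq start site on GRCm38.p6, 5′ to 3′ on the gene's strand, in lower case, with capitals marking the GC box GGGCGG and the CCAAT box, each searched on both strands, where they read CCGCCC and ATTGG.
Zfp266: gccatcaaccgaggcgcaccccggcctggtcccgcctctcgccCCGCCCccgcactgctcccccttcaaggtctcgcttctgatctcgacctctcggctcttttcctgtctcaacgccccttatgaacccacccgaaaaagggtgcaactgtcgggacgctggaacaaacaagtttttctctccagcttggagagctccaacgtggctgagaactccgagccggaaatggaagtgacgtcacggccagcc
Zfp979: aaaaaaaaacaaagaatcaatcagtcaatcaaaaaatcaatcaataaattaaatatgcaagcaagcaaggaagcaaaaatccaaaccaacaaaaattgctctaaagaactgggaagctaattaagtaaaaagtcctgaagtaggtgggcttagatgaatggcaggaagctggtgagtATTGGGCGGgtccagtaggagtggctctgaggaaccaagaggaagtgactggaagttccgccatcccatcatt
Zfp367: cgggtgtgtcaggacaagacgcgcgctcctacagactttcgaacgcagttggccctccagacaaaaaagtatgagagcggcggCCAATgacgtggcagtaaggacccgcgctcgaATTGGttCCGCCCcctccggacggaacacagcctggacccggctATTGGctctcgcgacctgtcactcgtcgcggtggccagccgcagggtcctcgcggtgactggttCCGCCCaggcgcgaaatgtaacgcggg

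The Zfp266 stretch is chr9:20521420-20521669 on the minus strand and held 1 GC box, no CCAAT box and 19 CG dinucleotides. That of Zfp979, chr4:147642509-147642758 on the minus strand, held 1 of each box, which overlap, and only 2 CG dinucleotides. That of Zfp367, chr13:64153200-64153449 on the minus strand, held 2 GC boxes, 3 CCAAT boxes and 29 CG dinucleotides. RefSeq lists a further start site for Zfp367, whose stretch, chr13:64152374-64152623, is not printed and differed, with 4 GC boxes, no CCAAT box and G and C at 74.0%. The 3 printed stretches had little in common in these letters, with G and C at 61.2%, 39.6% and 64.0% of the bases. Over RefSeq promoters of the same length, 93 of the 114 genes matched by symbol, with 119 start sites, and the GC box was found in 56.3% of these and in 32.7% of all 32851. The CCAAT box was found in 52.1% against 33.9%. The 2 sets are not alike, since the 32851 were not limited by level. Their median of G and C was 52.4%, with 6 CG dinucleotides, against 56.0% and 12 for the Zfp genes. So the shares do not show a trait of Zfp promoters. Genes with a KRAB box differed from the others, with the GC box in 42.4% and the CCAAT box in 67.8% of 59 stretches, against 70.0% and 36.7% of 60. Their median of G and C also differed, at 50.8% against 62.6%. A match is a description of these windows and not a site of binding.

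Zfp266 (ENSMUSG00000060510, chromosome 9 from 20495068 to 20521417 on GRCm38, the build of all positions given here) encodes a KRAB protein with 9 C2H2 fingers, known for impeding the reprogramming of fibroblasts to pluripotent cells. Its ES cell reads were 281 and 163 against 100 and 104, which is 224 and 215 against 95.1 and 100.5 per size factor. Both positive-side columns lay above both of the others. The authors' deposited table gave a log2 fold change of 0.95 (SE 0.26) and an unadjusted p of 0.0002 (DESeq2). With any 1 column left out, the log2 ratio of its reads stayed between 1.13 and 1.21. In blastocysts its reads were 32, 22 and 0 against 0, 0 and 0. Against a floor of 3 reads over the side, the counting limit was a 14.2-fold higher positive side, or 10.6-fold without the highest column. It leaves out the spread between embryo columns, so it is no lower limit of the difference between the sides. Counted in fragments, these limits would be lower. However, 1 positive-side embryo column held no read. The blastocyst fold change of the authors' deposited table, 6.36 (SE 2.71, unadjusted p of 0.0189 in DESeq2's Wald test), is that of a gene with no read on 1 side and depends on how the model treats such a side.

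Zfp979 (ENSMUSG00000066000, chromosome 4 from 147611937 to 147642513) is listed in RefSeq also as Ssm1b, a KRAB zinc finger gene known as a strain-specific modifier that directs DNA methylation of a transgene. It had the highest level per kilobase of transcript of the 114 genes in ES cells, 258 normalised reads per kilobase of its longest transcript. Its ES cell reads were 1039 and 660 against 441 and 581, or 829 and 869 against 419 and 561 per size factor. The sides did not overlap. The authors' deposited table gave a log2 fold change of 0.69 (SE 0.22) and an unadjusted p of 0.00154 (DESeq2). In blastocysts the reads were 436, 230 and 114 against 166, 58 and 110, or 311, 233 and 130 against 103, 64.7 and 158 per size factor. There the sides overlapped, since the lowest positive-side column was below the highest of the other side. The authors' deposited blastocyst table gave 1.06 (SE 0.54) and an unadjusted p of 0.0487 (DESeq2). Zfp979 shares 21.5% of its 50-base stretches with another gene, most with Zfp978 of the same cluster, so part of its count could belong to a copy.

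Zfp367 (ENSMUSG00000044934, chromosome 13 from 64133018 to 64153202) encodes a protein with 2 C2H2 fingers and no KRAB box. In ES cells its reads were 369 and 251 against 245 and 112, or 294 and 331 against 233 and 108 per size factor. The lowest column was negative-side column 2, which had the highest fibroblast marker sum, and without it the log2 ratio of 0.87 became 0.42. The log2 fold change in the authors' deposited table was 0.68 (SE 0.28). In blastocysts its reads were 12, 14 and 22 against 0, 0 and 0, so that every positive-side embryo column held reads and no negative-side column did. Against the same floor the counting limit was 15.1-fold, or 10.8-fold without the highest column, again leaving out the spread between embryo columns. The authors' deposited table gave 6.44 (SE 2.32) and an unadjusted p of 0.00544 (DESeq2), which did not pass after adjustment.

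**Figure D1:**
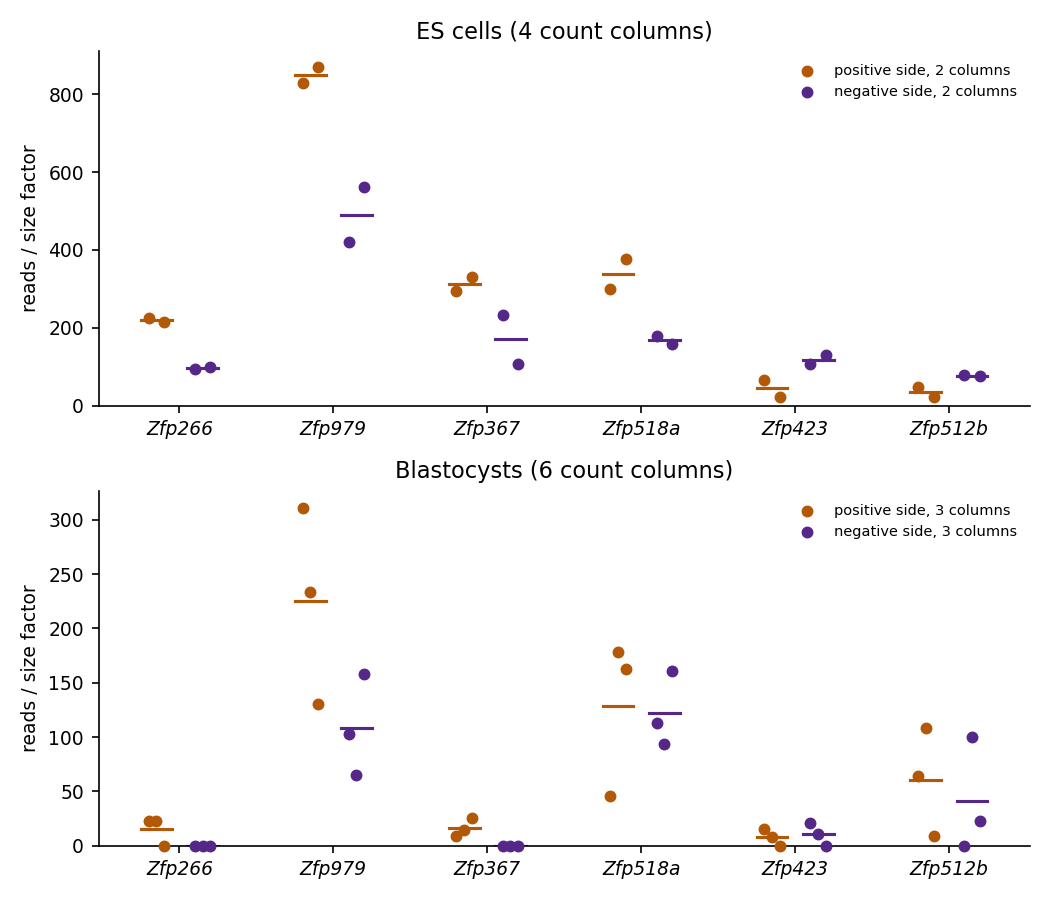
Normalised reads (reads divided by the size factor of the count column) for 6 Zfp genes, in ES cells above and in blastocysts below. Each point is 1 count column, coloured by side of the comparison, and bars are means over a side; Zfp266 and Zfp979 lie apart by side in ES cells, and Zfp367 has 0 reads in the 3 negative-side blastocyst columns.

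The other genes that stood out did so in 1 material. Zfp518a (chromosome 19 from 40894705 to 40917947) had ES cell reads of 377 and 287 on the positive side against 189 and 163, with no overlap, and a log2 fold change of 0.85 (SE 0.24) in the authors' deposited table. Its blastocyst reads of 64, 176 and 142 against 182, 84 and 112 overlapped, and the authors' deposited fold change there was 0.07 (SE 0.61). Whether the fold changes of the materials differ was not tested. The other 7 genes on the positive side in ES cells were Zfp982, Zfp985, Zfp945, Zfp62, Zfp961, Zfp507 and Zfp984, with log2 fold changes from 0.51 for Zfp984 to 0.70 for Zfp982 in the authors' deposited table. For each of these 7 both positive-side columns lay above both negative-side columns. The share was 21.9% over 1149 autosomal protein-coding genes drawn for comparison, which are described below. P-values from the same columns picked Zfp518a and these 7 genes, so nothing is read from their lack of overlap.

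On the negative side in ES cells the gene with the largest change was Zfp423 (chromosome 8 from 87661810 to 87959595), a transcription factor with 27 finger patterns that is known for its roles in adipocyte commitment and cerebellar development. Its reads were 83 and 18 against 113 and 134. Positive-side column 2 was the lowest by far, and without it the log2 ratio of −1.40 became −0.84. The authors' deposited table gave −0.91 (SE 0.31) and an unadjusted p of 0.00354 (DESeq2). The sum of the fibroblast markers was also highest on that side, in negative-side column 2, and without that column the log2 ratio of Zfp423 was −1.26. Zfp512b, with reads of 59 and 17 against 82 and 78, had a log2 fold change of −0.72 in the authors' deposited table, and its ratio of −1.14 became −0.70 without positive-side column 2. In blastocysts Zfp423 had 22, 8 and 0 reads against 34, 10 and 0, too few to show a difference.

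In blastocysts 2 further genes had an unadjusted p below 0.05. Zfp568 (chromosome 7 from 29983955 to 30028282), a KRAB protein that represses a placental promoter of Igf2, had the highest blastocyst mean of the 114 genes, 1121 normalised reads in the authors' deposited table. Its log2 fold change in the authors' deposited tables was 0.82 (SE 0.36) in blastocysts and −0.03 (SE 0.22) in ES cells. Its reads in blastocysts were not recovered, while those in ES cells, 815 and 714 against 812 and 883, overlapped. Zfp866 (chromosome 8 from 69761326 to 69791178), also a KRAB gene, had blastocyst reads of 0, 2 and 0 on the positive side against 30, 26 and 2, with a log2 fold change of −4.68 (SE 2.16) in the authors' deposited table. Its negative side was decided by 2 of 3 columns. In ES cells its 69 and 38 reads against 48 and 63 overlapped.

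The counts of Zfp genes whose columns did not overlap were unequal between the sides in ES cells. Both positive-side columns were higher for 42 of 114 genes and both negative-side columns for 12, while over 1149 autosomal protein-coding genes drawn at even steps from those with means of 50 to 260 the shares were 21.9% and 20.5%. Within that range of means it was 33 and 11 of 95 Zfp genes. In blastocysts the sides were apart for 7 and 3 of 102 genes, against 4.26% and 6.22% over 916 genes with means of 10 to 50, and within that range for 2 and 1 of 39.

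Over all 114 genes the median log2 fold change in the authors' deposited tables was 0.07 in ES cells and 0.30 in blastocysts. The same median was 0.006 and 0.02 over 5570 other autosomal protein-coding genes with the same minimum means, and −0.0001 and −0.04 over all genes tested. The deposited fold change was positive for 68 of 114 Zfp genes in ES cells and for 77 of 114 in blastocysts, against 2844 and 2877 of the 5570. In log2 ratios of the recovered reads the medians were 0.096 over 114 genes in ES cells and 0.323 over 102 in blastocysts, and single columns moved them. The ES cell median became 0.174 without positive-side column 1, 0.054 without positive-side column 2, 0.041 without negative-side column 1 and 0.203 without negative-side column 2. The blastocyst median became 0.124 without positive-side column 1 and 0.193 without negative-side column 3. The ES cell fold changes appear shrunken, so sizes are not comparable between the tables. The sign was the same in both tables for 65 of the 114 genes, 57.0%, and for 50.6% of the 9403 genes tested in both. Across the 114 genes, which are not replicates, the fold changes of the tables had a Spearman's rho of 0.13. It was 0.006 across the 9403 genes, 0.28 across the 55 Zfp genes with a KRAB box and 0.01 across the 58 without. These values were not tested.

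**Figure D2:**
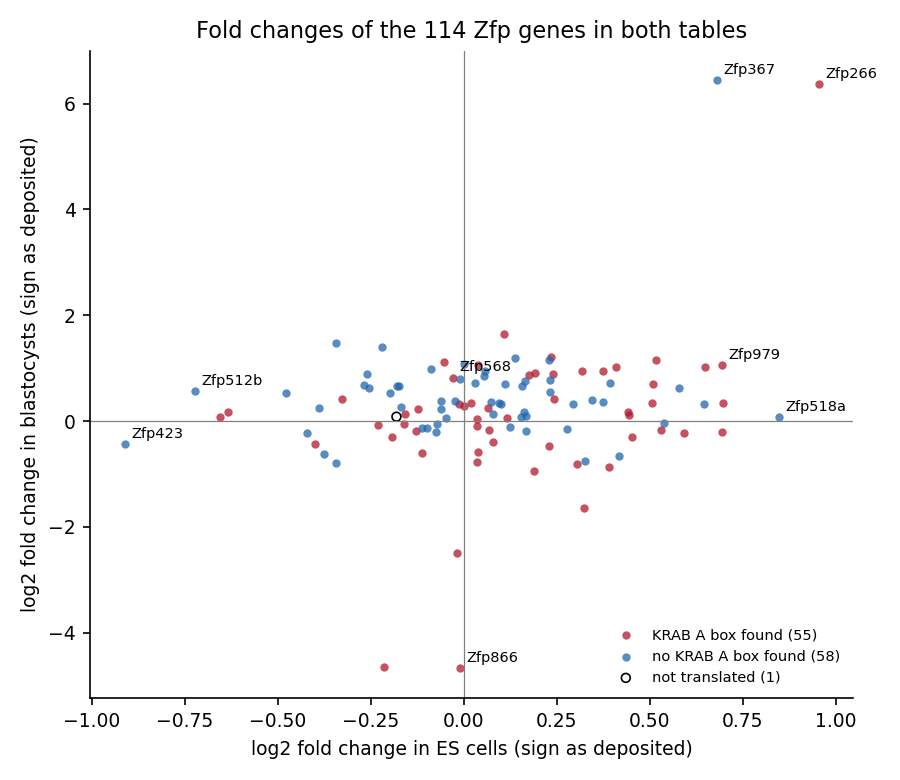
Log2 fold change of each of the 114 Zfp genes in ES cells (horizontal axis) and in blastocysts (vertical axis), with the sign as deposited. Red points encode a KRAB A box and blue points do not; Zfp266, Zfp367 and Zfp979 lie on the positive side of both axes.

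A KRAB A box was found in the longest translated protein of 55 of the 114 genes, by a profile at an E-value of 0.001, and not in 58. The longest coding sequence of Zfp978 was not translated. Over all 21584 mouse proteins 1.62% had such a box. The KRAB proteins had a median of 12 C2H2 finger patterns, and the others 6.5. In ES cells 37 of 55 KRAB genes had a positive deposited log2 fold change, with a median of 0.11, and 31 of 58 others did, with a median of 0.05. In blastocysts it was 32 of 55 with a median of 0.13 and 44 of 58 with a median of 0.37. The group with the higher median was thus not the same in both materials, and no test of the difference was made because the genes were chosen with results known.

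Single columns decided part of this. From the recovered reads, the median log2 ratio of the 55 KRAB genes in ES cells was 0.15, and it ranged from 0.05 without negative-side column 1 to 0.29 without positive-side column 1. Without negative-side column 2, which had the highest fibroblast marker sum, it was also 0.29, and 45 of 55 were positive. In blastocysts the median of 51 KRAB genes was 0.14 with all columns. It became −0.17 without positive-side column 1, the side's column with the highest Zfp level, and −0.12 without negative-side column 3, the lowest of all. The direction of the KRAB genes in blastocysts therefore rested on these columns. The median of the 50 genes without KRAB kept its sign, between 0.26 and 0.75.

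**Figure D3:**
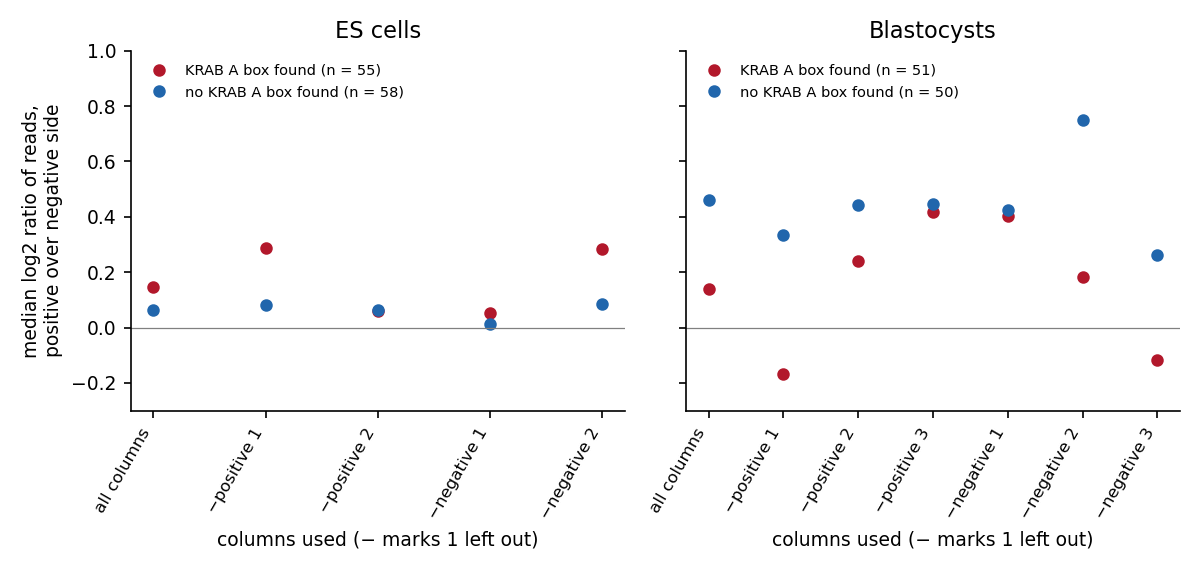
Median log2 ratio of normalised reads, positive over negative side, of Zfp genes with and without a KRAB A box, with all count columns and with each column left out in turn. The KRAB median in blastocysts lies below 0 without positive-side column 1 or negative-side column 3, and the ES cell medians stay above 0.

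By level, the Zfp genes were mostly in the upper range of the ES cell table, as the choice required, and near the middle of the blastocyst table. Among autosomal protein-coding genes in both tables, their median percentile was 73.5 in ES cells and 50.3 in blastocysts. In ES cells, where the choice cut the means at 50, KRAB genes stood at 70.9 and the others at 74.1. In blastocysts, where it asked only for a mean above 0, they stood at 39.5 and 66.7, so the gaps in the 2 materials are not compared. The median blastocyst mean was 35.8 normalised reads for KRAB genes and 137 for the others in the authors' deposited table, while it was 192 for the 5570 other genes. Per kilobase of the longest transcript the blastocyst medians were 10.8 and 25.0 normalised reads, in the same order. The genes with the highest ES cell means were Zfp106 (823 normalised reads), Zfp568 (804), Zfp979 (670), Zfp292 (652) and Zfp704 (597) in the authors' deposited table. In blastocysts they were Zfp568 (1121), Zfp106 (869), Zfp207 (697), Zfp706 (650) and Zfp598 (548). The ES cell and blastocyst means of the 114 genes had a Spearman's rho of 0.44. Just inside the minimum mean of 50 lay Zfp143 (50.1), Zfp760 (50.2) and Zfp800 (50.9), and just outside it Zfp146 (49.6), Zfp827 (48.2) and Zfp991 (48.0) in the authors' deposited table.

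**Figure D4:**
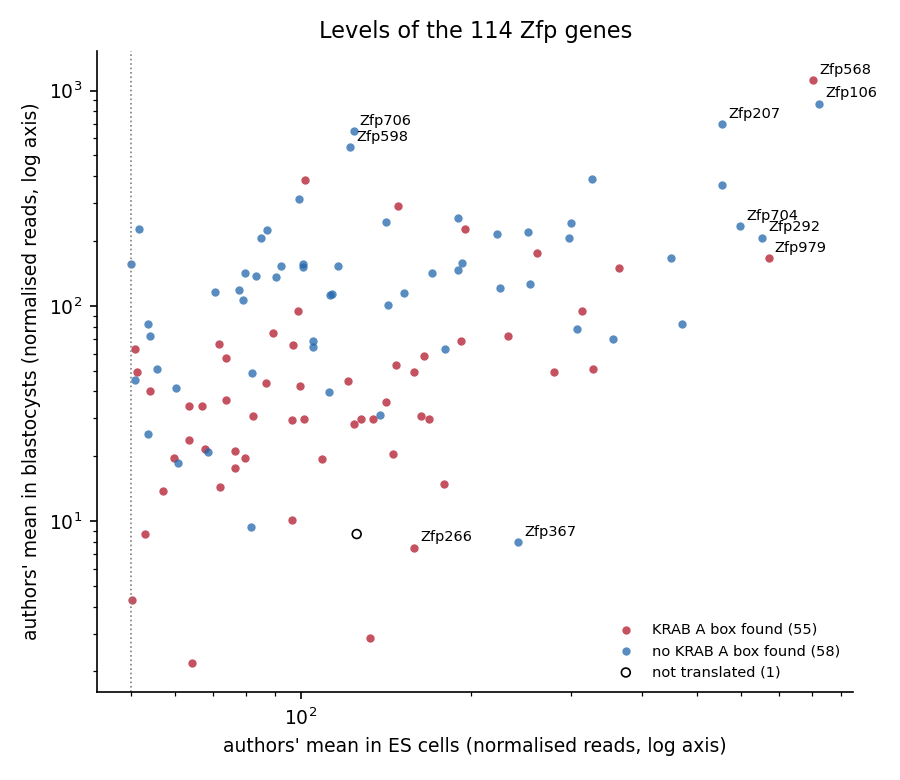
Authors' mean of normalised reads of each Zfp gene in ES cells (horizontal, log axis) and in blastocysts (vertical, log axis), with red for genes with a KRAB A box and blue for those without. The dotted line is the minimum mean of 50, and most red points lie below the blue ones on the vertical axis.

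The KRAB genes with known work on repeats and imprints were 3 of the 114. Zfp809, which recognises the primer binding site of murine leukaemia viruses and silences proviruses, had ES cell reads of 96 and 66 against 107 and 84 and blastocyst reads of 92, 76 and 0 against 138, 32 and 0. The sides overlapped in both materials. Zfp445, which helps to maintain imprints, had ES cell reads of 382 and 248 against 235 and 274, or 305 and 327 against 223 and 265 per size factor, so its sides lay apart. Its log2 fold change was 0.32 (SE 0.23) in ES cells and 0.94 (SE 0.91) in blastocysts in the authors' deposited tables. Its blastocyst reads of 106, 62 and 48 against 22, 68 and 8 overlapped through 1 negative-side column. Zfp568, the third, is described above.

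The cofactors of KRAB proteins gave no call in either material. Of 24 cofactor genes, 0 had an adjusted p below 0.05 and 0 an unadjusted p below 0.05, in ES cells and in blastocysts alike (DESeq2). The deposited fold change was positive for 15 of 24 in ES cells, with a median of 0.03, and for 13 of 24 in blastocysts, with a median of 0.15. Trim28, the corepressor itself, had log2 fold changes of −0.01 (SE 0.21) and −0.26 (SE 0.28) in the authors' deposited tables. Setdb1, the methyltransferase, stood at 0.32 (SE 0.24) in ES cells and −0.32 (SE 0.33) in blastocysts in the authors' deposited tables. The Zbtb genes, another zinc finger family with the same minimum means, had medians of −0.04 in ES cells and 0.56 in blastocysts over 13 genes. The 5 Zscan and Zkscan genes had medians of 0.22 and 1.13, so a positive blastocyst median was not seen in the Zfp genes alone.

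Of 9 stem cell regulators listed, 8 were among the 114, and none had an unadjusted p below 0.05 in either table. Their deposited fold change was positive for 2 of 8 in ES cells (median −0.06) and for 5 of 8 in blastocysts (median 0.52). Zfp281, a regulator of the exit from naive pluripotency, had ES cell reads of 259 and 183 against 238 and 232, which overlapped, and blastocyst reads of 274, 122 and 124 against 214, 68 and 38. Zfp462, a nuclear protein that limits expression of lineage genes in ES cells, had 422 and 141 reads against 316 and 421 in ES cells, with positive-side column 2 the lowest. In blastocysts its reads were 292, 126 and 8 against 0, 106 and 4, with high and low columns on both sides. Zfp219 had ES cell reads of 125 and 72 against 153 and 130 and blastocyst reads of 126, 134 and 118 against 238, 142 and 176, with the negative side higher in both materials. Its log2 fold changes were −0.38 (SE 0.27) and −0.63 (SE 0.49) in the authors' deposited tables. Zfp322a had 97 and 51 reads against 50 and 50 in ES cells, where the positive side was higher, and 36, 36 and 30 against 118, 17 and 42 in blastocysts, where the sides overlapped. Zfp143, an activator at promoters and loop anchors, had 75 and 37 against 49 and 47 in ES cells, apart by side after normalisation, and 190, 172 and 248 against 238, 110 and 54 in blastocysts, where the sides overlapped. Zfp217, Zfp609 and Zfp706 had ES cell log2 fold changes of −0.18, −0.02 and −0.10 and blastocyst ones of 0.67, 0.38 and −0.14 in the authors' deposited tables.

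Zfp genes that act on RNA were 7 of 12 listed, with no unadjusted p below 0.05 in either table. Their median log2 fold changes in the authors' deposited tables were 0.07 in ES cells and 0.10 in blastocysts. Zfp598, the ubiquitin ligase that marks collided ribosomes, had 167 and 80 ES cell reads against 137 and 124, and its log2 fold changes were −0.05 (SE 0.27) in ES cells and 0.05 (SE 0.33) in blastocysts in the authors' deposited tables. Zfp622, a factor of 60S ribosomal subunit assembly, had 151 and 117 against 150 and 154 in ES cells and 404, 252 and 156 against 337, 216 and 208 in blastocysts, overlapping in both. Zfp638, which recruits the HUSH silencing complex to unintegrated viral DNA, had 696 and 520 reads against 465 and 557 in ES cells, with the positive side higher after normalisation. Zfp207, a spindle and splicing factor, had 744 and 448 against 500 and 582, also apart, with a log2 fold change of 0.17 in the authors' deposited table. Zfp106, an RNA-binding protein of motor neurons and muscle, had 1053 and 690 against 736 and 871, and the sides overlapped. Zfp346, which binds double-stranded RNA, had 116, 72 and 122 against 44, 40 and 48 in blastocysts, apart by side, with a log2 fold change of 1.08 (SE 0.68) in the authors' deposited table. Zfp473, which acts in histone mRNA processing, had 62 and 76 against 84 and 60 in ES cells.

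The remaining transcription factors with listed roles were 6, among which Zfp423 alone had an unadjusted p below 0.05. Zfp148, a factor of GC-rich promoters, had blastocyst reads of 402, 212 and 304 on the positive side against 336, 122 and 88, or 287, 215 and 347 against 208, 136 and 127 per size factor. The sides lay apart by a small gap, and the log2 fold change was 0.85 (SE 0.44) in the authors' deposited table. Zfp91, a ubiquitin ligase of the NF-κB pathway, had 451 and 292 reads against 271 and 317 in ES cells, apart by side, with 0.34 (SE 0.23) in the authors' deposited table. Zfp384, Zfp131 and Zfp704 had log2 fold changes of −0.06, 0.07 and −0.17 in ES cells and 0.23, 0.36 and 0.27 in blastocysts in the authors' deposited tables, each smaller than its standard error.

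The largest tandem cluster was on chromosome 4 from 145510759 to 147809788, with 13 of the 114 genes from Zfp990 to Zfp984, 12 of them with a KRAB box. In ES cells 6 of the 13 had an unadjusted p below 0.05, 4 on the positive side, where 2.21% of all genes tested had one, and 2 on the negative side, where 3.42% did. Nothing is read from these counts, and the 6 genes did not share a direction. Zfp982, Zfp985, Zfp979 and Zfp984 were positive, with log2 fold changes of 0.70, 0.69, 0.69 and 0.51 in the authors' deposited table, and Zfp992 and Zfp981 were negative, with −0.64 and −0.65. The 4 positive genes lie at the distal end of the cluster, where only Zfp534, with −0.33 (SE 0.27), interrupts them. The 2 negative genes are neighbours in its middle. Toward the proximal end Zfp990 and Zfp987 were also positive, with 0.44 (SE 0.23) and 0.51 (SE 0.30), each with an unadjusted p above 0.05 (DESeq2). The cut-off on p picked the 6 genes, so no pattern of position is read from them. Zfp985 had 299 and 335 ES cell reads against 139 and 239, and Zfp982 had 187 and 153 against 69 and 123. Zfp981 had 138 and 103 against 212 and 233, and Zfp992 had 119 and 104 against 237 and 182. The sides were apart for each of these 4, where the shares over drawn genes were 21.9% positive and 20.5% negative. P-values from the same columns picked the 4, so nothing is read from this either. In blastocysts 11 of the 13 were positive, with a median of 0.18, and Zfp979 alone had an unadjusted p below 0.05.

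The transcripts of this cluster are alike, and a median of 54.6% of their 50-base stretches also occurred in another gene, from 10.1% in Zfp982 to 92.1% in Zfp987. Their counts are therefore uncertain, since reads could have been split or dropped between copies. Over all 114 genes, 19 shared at least 20% of their stretches, and their median ES cell log2 fold change was −0.11, against 0.08 for the other 95.

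**Figure D5:**
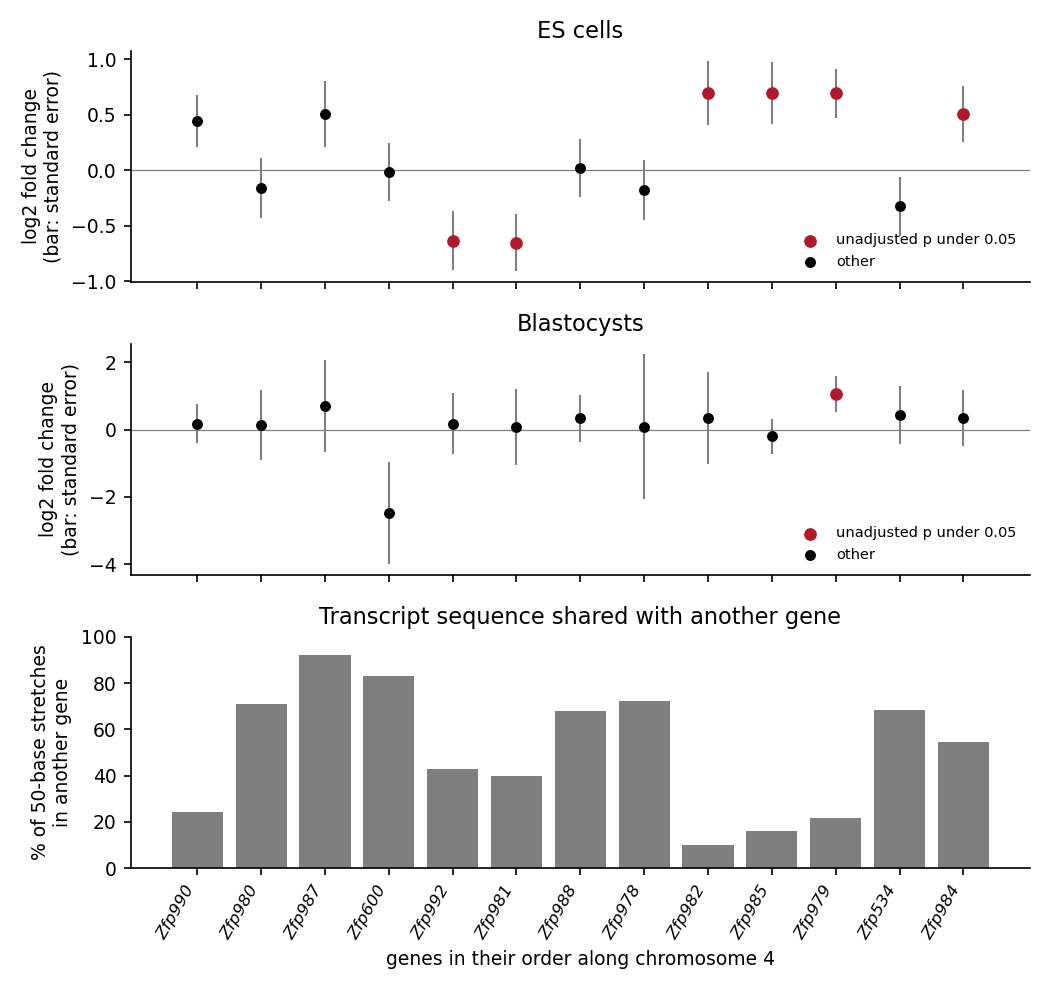
Log2 fold change with its standard error in ES cells and blastocysts, and the share of 50-base stretches found in another gene, for the 13 Zfp genes of the chromosome 4 cluster in their order along the chromosome. Red points have an unadjusted p under 0.05: 4 positive and 2 negative genes in ES cells and Zfp979 in blastocysts.

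The other clusters held few such genes. On chromosome 17 from 21008941 to 22867134, 8 KRAB genes from Zfp160 to Zfp945 had medians of 0.27 in ES cells and 0.98 in blastocysts, with 6 of 8 positive in each. Zfp945 was the 1 gene there with an unadjusted p below 0.05, at 214 and 127 ES cell reads against 111 and 90. On chromosome 13 from 67405709 to 67729173, 5 of 5 genes from Zfp459 to Zfp65 were positive in both materials. In the other cluster on that chromosome, 62129886 to 62571199, 3 of 3 from Zfp808 to Zfp934 were negative in both. In neither case was an unadjusted p below 0.05. Over all genes tested 50.0% were positive in ES cells and 48.3% in blastocysts. The 5 genes shared 5% to 41% of their 50-base stretches with another gene and the 3 genes 40% to 98%. Reads could have been split or dropped between copies, so the common signs are not separate observations. In the chromosome 7 cluster from Zfp141 to Zfp715, 3 of 6 genes were positive in ES cells (median 0.09) and 2 of 6 in blastocysts (median −0.26). The chromosome 9 cluster, 3 genes from Zfp317 to Zfp266, had medians of 0.53 in ES cells and −0.18 in blastocysts. On chromosome 9, which also carries Dis3l from 64306756 to 64341288, 7 Zfp genes had medians of 0.32 in ES cells and 0.38 in blastocysts. Zfp266 lies 43.8 Mb from Dis3l, with Zfp26 as its nearest neighbour among them, which had 168 and 137 ES cell reads against 100 and 105 and a log2 fold change of 0.53 (SE 0.27) in the authors' deposited table. Zfp609, the nearest at 1.35 Mb, had 131 and 56 ES cell reads against 66 and 125, which overlapped.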

How the data were processed

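RNA was sequenced in 12 mouse samples. Per the submitters' processing notes, the tools named are STAR 2.4.0b, bedtools, SAMtools, featureCounts, Subread 2.0.1 and DESeq2 1.34.0 on GRCm38, with no order or role given. Per the file headers, the signal column is the authors' mean of normalised counts. Fold changes and their standard errors are on the log2 scale, and the Wald statistic is kept as a score, both as deposited per the file headers. The p-value columns hold the authors' p-values and adjusted p-values, per the file headers. Neither table holds per-sample values, so no count test was run and the authors' statistics were used, with an adjusted p below 0.05 as a call.

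Whole reads were solved from the means, which carry 15 significant digits, and a blastocyst solution had to give back the authors' fold change where more than 1 was possible. Blastocyst means above 100, up to 260, were solved for even reads, which gave the reads of 31 Zfp genes. For 3 more, 1 odd number was allowed after even reads gave no match. For these genes no other whole numbers were searched. ES cell columns were placed on a side by the sign of fold changes, which matched for 98.8% of 167 genes. Blastocyst columns were placed by the split that gave the deposited fold changes back, which it did for 100% of 74 genes. Columns were not tied to samples or genotypes, and intervals were not computed. Blastocyst reads were not recovered for 12 Zfp genes, 10 with means above 260 and 2 whose mean did not give exactly 1 accepted solution. Solving whole reads with the size factors supplied was tested on simulated data, as was the calling of genes. Estimating the size factors, placing columns on a side, searching even reads and choosing a solution by its fold change were not tested in that way.

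Proteins were translated from GENCODE M21, where C2H2 fingers were C, 2 to 4 residues, C, 12 residues, H, 3 to 5 residues, H. The KRAB A box was searched with HMMER 3.4. Promoters came from RefSeq. Coordinates of genes are those of the ES cell table. A cluster was 3 or more of the genes with gaps of at most 1 Mb.

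The genes, the role lists and the tests were chosen with earlier results of these data known. Genes are named if they had the highest means, the largest changes with an unadjusted p below 0.05, such a p in both tables, a mean next to the minimum, or a listed role; others are named as counts of 5 or fewer or as cluster neighbours. Alternatives were other thresholds, other sets of genes for the adjustment, other minimum means, reads in place of fold changes, and each column left out. Scripts used Python 3.11.15, pandas 2.3.3, numpy 2.4.6 and scipy 1.17.1.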

Additional observations from a re-analysis of the deposited data

How the results depend on the processing

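The count of called Zfp genes stayed at 0 in blastocysts under each alternative run, and in ES cells under all but 1. Adjusting over genes with a mean of at least 50 gave 1 ES cell gene, Zfp266, with an adjusted p of 0.0436, and its values ranged from 0.0436 to 0.108 over the alternatives. That setting adjusts over fewer genes. The adjusted p of Zfp518a ranged from 0.0629 to 0.138. The ES cell median log2 fold change of 0.07 in the authors' deposited table was 0.096 in log2 ratios of reads with all columns, and these ranged from 0.041 to 0.203 with 1 column left out, at 0.203 without negative-side column 2 and 0.174 without positive-side column 1. The blastocyst median of 0.30 was 0.323 in ratios of reads, which ranged from 0.124 to 0.421, lowest without positive-side column 1. No alternative reversed either median, but the blastocyst median of KRAB genes alone changed sign, as given above. Restricting to genes with 1 symbol, to little shared sequence, or to genes with or without KRAB was chosen after seeing the data, as was leaving out columns for single genes. In blastocysts low reads limit what can be shown: Zfp945 had 16, 0 and 0 reads against 0, 0 and 4. No paired analysis was possible because neither table holds per-sample values, so replicate numbers could not be used as a block.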
